A study of Mus musculus with 47 samples.

Results

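The cytosolic ribosomal proteins are the protein parts of the ribosome that works outside mitochondria. They were taken here as all genes on the array whose symbol starts with Rpl or Rps followed by a number, plus Rplp0, Rplp1, Rplp2 and Rpsa, without the Rps6k kinases and without pseudogenes. The rule found 72 of the 17097 genes with a probe set (the group of short probes that measures a transcript on this array): 38 proteins of the large subunit, 24 of the small subunit, the 3 proteins of the P-stalk, and 7 genes that are paralogs of ribosomal proteins or share only the form of the name. Each gene is represented by its brightest probe set, by the mean of the 47 arrays. Of the 72 chosen probe sets, 18 are of a design open to cross-hybridisation and 6 of a design shared with other genes. After genes of low signal were left out, 70 of the 72 were among the 10258 genes tested. The 2 left out were Rpl3l and Rpl39l.

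The arrays measured RNA of muscle stem cells (satellite cells, which lie along the fibres of skeletal muscle and rebuild them after injury) from 47 female wild type C57B6/J mice, 1 array per mouse. The mice went onto a high-fat diet or its matched control diet at 8 weeks of age, ate freely for 7 weeks, and were 15 weeks old at collection. Cells were collected at 6 zeitgeber times (ZT) 4 h apart, from ZT0 to ZT20, where ZT0 is by convention lights on. Each of the 12 groups of 1 diet and 1 time held 4 mice, except high-fat ZT16 with 3, which gives 24 control and 23 high-fat mice. Both diets of a time were collected on 1 day, so the diets were compared within a day, whereas time of day and collection day cannot be told apart within a diet.

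The ribosome translates mRNA into protein. Its small subunit reads the codons, its large subunit joins the amino acids and releases the chain through an exit tunnel, and the P-stalk of the large subunit recruits the elongation factors. Cells make the ribosomal proteins in matched amounts and degrade the excess, and growth signals through mTORC1 and MYC raise ribosome production. The mRNAs of these proteins belong to the TOP mRNAs, which begin with a C followed by a run of pyrimidines (C and T bases) and whose translation mTORC1 controls. A few ribosomal proteins have near copies whose expression is restricted to some tissues or to stress, such as Rpl3l in striated muscle and Rps27l, a target of p53. Resting satellite cells are small cells with low protein synthesis, which increases when they are activated.

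The listed start sites were searched for pyrimidine runs, the feature of TOP mRNAs. RefSeq promoter windows (build GRCm38.p6) were listed for 58 of the 72 genes, and the first listed start was used for the 9 genes with more than 1. The following windows hold the 10 bases before the listed start and the 20 from it on, 30 bases in all, 5′ to 3′ on the strand of the gene, with the longest run of C or T in capitals. They are shown for 6 genes that were lower on the high-fat diet on average over the day. Rps15 and Rps21, which differed at ZT0, are added, as are Rps6 and Rps27l as genes that did not pass that average test. The 6 hold all 4 genes called on average with a run of at least 8 bases. Long runs of genes not called on average, 20 at Rpl27a and 17 at Rpl15, are not shown. The windows shown thus do not represent the run lengths of either set.
Rpl35, chr2:39005112-39005141, minus strand: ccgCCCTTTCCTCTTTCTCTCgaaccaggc
Rpl7a, chr2:26910797-26910826, plus strand: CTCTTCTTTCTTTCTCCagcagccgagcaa
Rplp2, chr7:141447641-141447670, plus strand: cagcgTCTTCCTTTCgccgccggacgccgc
Rps26, chr10:128626487-128626516, minus strand: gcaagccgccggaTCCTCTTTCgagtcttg
Rpl41, chr10:128549149-128549178, minus strand: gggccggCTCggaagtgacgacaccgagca
Rpsa, chr9:120127756-120127785, plus strand: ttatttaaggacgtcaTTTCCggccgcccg
Rps15, chr10:80292421-80292450, plus strand: cagagCTCgcgataactgcgcaagcgcagc
Rps21, chr2:180257369-180257398, plus strand: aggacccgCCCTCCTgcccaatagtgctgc
Rps6, chr4:86857348-86857377, minus strand: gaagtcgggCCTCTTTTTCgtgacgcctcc
Rps27l, chr9:66946076-66946105, plus strand: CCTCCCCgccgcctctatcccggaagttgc

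The longest run was 18 bases at Rpl35 and 17 at Rpl7a, 10 at Rplp2 and Rps6, 9 at Rps26, and 3 at Rpl41 and Rps15. A run of at least 8 lay in this window in 18 of the 58 members (31.0%), against 11.2% of the 27025 genes in the table. The listed first base was C in 31.0% of the members and 16.2% of all genes, and C or T in 46.6% and 29.4%. Most members thus held no such run in this window, and most did not start with C at the listed base. The motif GGAAGT, searched on both strands of the 300 bases from 250 before to 50 after the start, was found in 29 of the 58 members and in 24.1% of all genes, and it can overlap the runs on the opposite strand. ATGGCG, searched in the same way, was found in 27.6% of the members and 9.2% of all genes, and TATAAA in 10.3% and 14.2%. These matches describe the letters in a listed window and are not measured start sites or binding.

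In the cells measured here the signal of the ribosomal proteins was strong and steady. The mean log2 signal of the 70 tested members ran from 6.65 to 12.83 with a median of 11.75, against a median of 7.45 over all tested genes, and 64 of them (91.4%) lay in the top decile of mean level. Between mice of the same diet and time the SD had a median of 0.067 on the log2 scale over the members (0.035 to 0.286), against 0.19 over all tested genes and 0.117 over the 962 other genes of the top decile. The steadiest member was Rpl31, whose SD over all 47 arrays was 0.04 and whose log2 level ran from 12.34 to 12.52. Rps3a1 and Rpl15 followed with SDs of 0.044 and 0.047. The widest spreads were those of Rps19bp1 (SD 0.323, from 6.29 to 7.52), Rpl14 (0.313) and Rpl7l1 (0.291). Their mean log2 levels were 6.83, 8.39 and 8.44, under the members' median. Brighter probe sets of Rpl14 that also name a pseudogene, with means from 11.32 to 11.48, were not used. The highest log2 value of any probe set on any array was 13.09. The part of closeness to this top in the members' small spreads and differences was not tested. Within groups the members also tended to deviate together: the correlation of their deviations from the group means, over the 47 arrays, had a median of 0.31 over 2415 pairs of members and was above 0 for 83.6% of pairs, against a median of 0.03 among the other genes of the top decile. All of these values share the arrays and their scaling, so this correlation is a description.

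The cells carried the markers of satellite cells, all 10 of which were above the filter, among them the transcription factors Pax7 (mean log2 level 10.86 on the control diet, 10.98 on the high-fat diet) and Myf5 (10.58 and 10.61). Ptprc, which marks all leukocytes, was at 3.85 on both diets and Pdgfra, which marks fibro-adipogenic cells, at 4.37 and 4.36, near the 3.89 of non-specific control probe sets. Other markers of these lists were strong, such as the matrix genes Dpt (11.32 and 11.45), Col3a1 (11.26 and 11.37) and Dcn (10.14 and 10.29). The lysosomal Cd68 of the immune list was at 8.79 and 8.47. In the smooth muscle and pericyte list Acta2 (10.96 and 10.91), Myh11 (10.70 and 10.59) and Rgs5 (10.30 and 9.83) were also strong. So were Hba-a2 of the erythroid list (11.02 and 10.98) and Pmp22 of the Schwann cell list (10.45 and 10.61). Dimmer genes of the same lists were Kcnj8 (6.68 and 6.40), Alas2 (5.26 and 5.30) and S100b (5.81 and 5.84). The presence of such cells was thus not settled by these levels. Other cell types' markers moved with the diet in part. On average over the day 3 of the 10 satellite cell markers were higher on the high-fat diet (Calcr, Pax7 and Vcam1), as were 3 of 5 tested Schwann cell markers (Pmp22, Mbp and Sox10) and 2 of 4 tested fibro-adipogenic markers (Dpt and Col3a1), while Cd68 of the immune list and Pdgfrb of the pericyte list were lower. The mean level of the Schwann cell list ran from 7.54 to 8.22 in control mice and from 7.58 to 8.49 in high-fat mice, that of the fibro-adipogenic list from 7.66 to 8.86 and from 7.88 to 8.71, that of the pericyte list from 8.50 to 9.89 and from 8.19 to 9.55, that of the immune list from 5.04 to 6.18 and from 5.06 to 5.54, and that of the satellite cell list from 9.80 to 10.02 and from 9.81 to 10.25. None of the tested endothelial (4), myofibre (7) or erythroid (2) markers passed the test. Over all tested genes 4.70% were called higher and 6.80% lower on average. One library stood apart: control ZT20 replicate 2 was at 7.85 in its endothelial list mean, with the other arrays at 6.50 or below, and was also the highest array in the immune list (6.18, next 5.54), the erythroid list (9.37, next 8.98) and the fibro-adipogenic list (8.86, next 8.71). The 3′ minus 5′ signal of Gapdh, a sign of RNA integrity, was −0.137 ± 0.054 (SD, n = 24) in control and −0.159 ± 0.041 (SD, n = 23) in high-fat mice, and that of Actb −0.309 ± 0.068 and −0.327 ± 0.064. Within groups these measures correlated with the per-mouse median of the members at −0.25 and −0.30 over the 47 arrays, which is a description, since both come from the same arrays. The part of any of these in the differences below was not tested, and in bulk RNA fewer cells of a type and less RNA per cell cannot be told apart.

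Whether 7 weeks of high-fat feeding changed the ribosomal proteins was asked first over the whole day, as the mean of the 6 differences between the diets at the same time. Members of both subunits and of the P-stalk were slightly lower on the high-fat diet, and most members did not pass the test. Of the 70 tested, 21 (30.0%) were lower and 0 higher at an adjusted p under 0.05 (limma, n = 24 control and 23 high-fat mice), beside a background of 6.80% of all tested genes called lower, 4.70% called higher and 11.5% in either direction. Without adjustment 39 members (55.7%), all lower, were at a p under 0.05, beside 26.7% of all tested genes in either direction. The difference was below 0 for 68 of the 70 (97.1%, against 55.1% of all tested genes), the exceptions being Rps7 and Rpl35a. The median difference was −0.047 on the log2 scale, beside −0.011 over all tested genes. Among the other 962 genes of the top decile the median was −0.018, with 147 (15.3%) called lower and 95 higher, while of the 64 members in that decile 20 (31.2%) were called lower, with a median of −0.045.

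**Figure D1:**
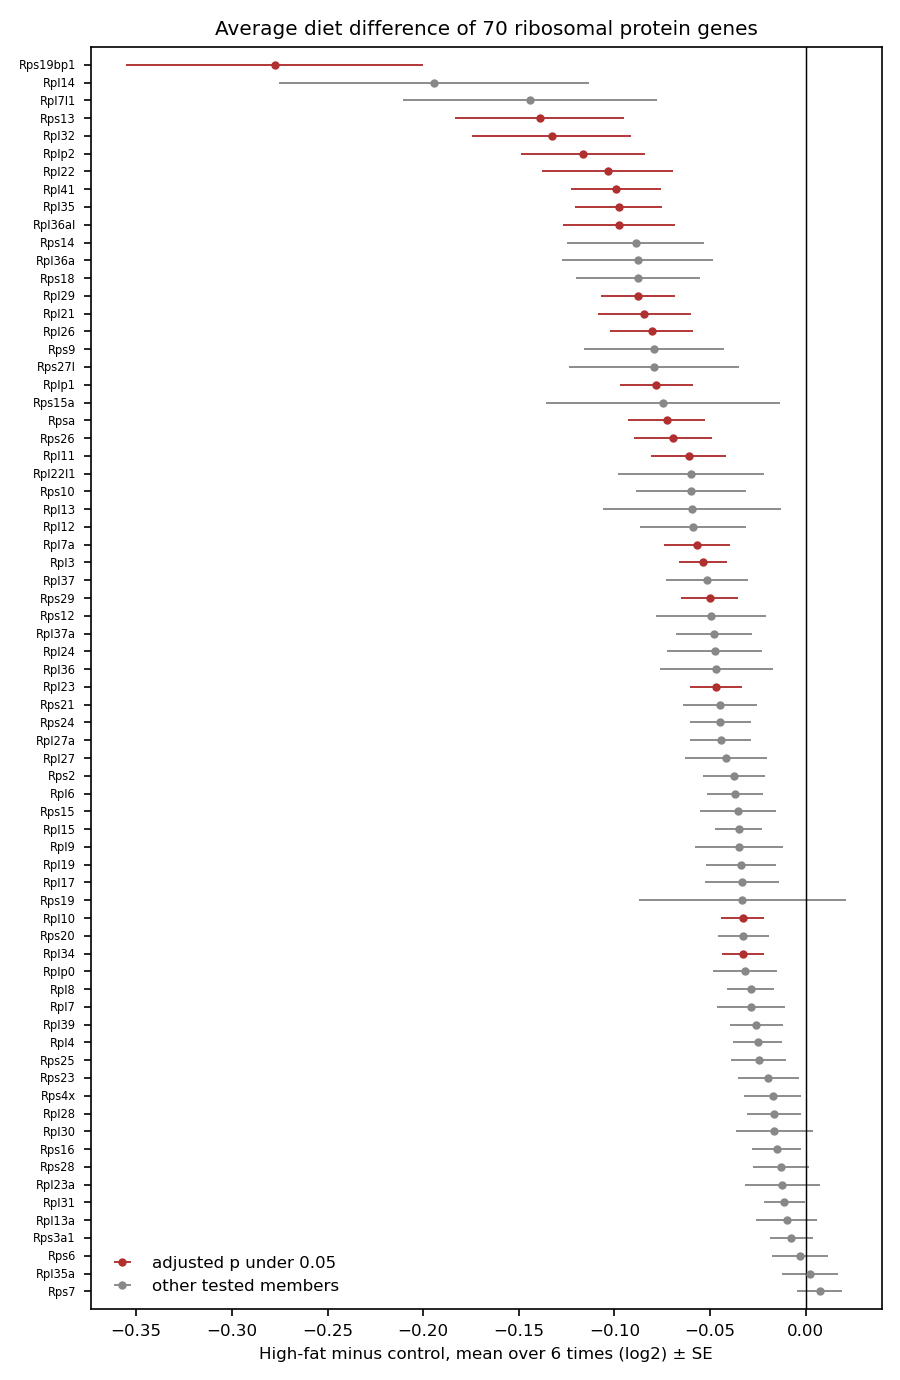
High-fat minus control difference of the 70 tested ribosomal protein genes on the log2 scale, averaged over the 6 times, with 1 point per gene and its standard error as a bar, sorted by the difference. All but Rps7 and Rpl35a lie below 0, and the 21 genes with an adjusted p under 0.05 are all lower on the high-fat diet.

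The size of these differences was small. The 21 called members were lower by 2.2% to 17.5%, with a median of 5.4%, and by at most 9.2% without Rps19bp1, which is no ribosomal protein. The median absolute difference of the called members was 0.0805 on the log2 scale, against 0.196 over all genes called in this comparison. The group mean was lower on the high-fat diet at all 6 times for 19 of the 70 members, which held for 3.72% of all tested genes, and at 5 or more times for 41 members, which held for 17.7% of all. Among the 21 called members 18 were lower at 5 or more times and 11 at all 6. These genes were called on the mean of the same 6 differences, so these 2 counts are a description and no separate support.

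Large subunit proteins made up 13 of the called genes, out of 38. Rpl29 had the smallest p. Its log2 level ran from 11.74 to 12.01 with a median of 11.85 in control mice and from 11.56 to 11.88 with a median of 11.78 in high-fat mice, and 20 of the 23 high-fat mice lay below the control median. The ranges overlapped, and the difference was −0.088 ± 0.019 (SE, adjusted p = 0.00223, n = 24 and 23), or 5.89% lower. Rpl3, which lies beside the catalytic centre, ran from 11.93 to 12.16 (median 12.05) in control and from 11.90 to 12.07 (median 12.01) in high-fat mice. It was lower by 3.65% (−0.054 ± 0.012, adjusted p = 0.00381), and 22 of the 23 high-fat mice lay below the control median. Such counts of mice, in this paragraph and those that follow, pool the 6 times and use the same values as the calls. They describe the called genes and were not set beside a share over all genes.

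Rpl35, which lines the exit of the peptide tunnel and carries the longest pyrimidine run of the windows shown, ran from 11.59 to 11.87 (median 11.76) in control and from 11.47 to 11.82 (median 11.65) in high-fat mice. It was lower by 6.55% (−0.098 ± 0.023, adjusted p = 0.00389). Rpl41, the smallest ribosomal protein, whose window held a run of only 3, ran from 11.64 to 11.97 (median 11.80) and from 11.51 to 11.88 (median 11.69) and was lower by 6.64% (−0.099 ± 0.023, adjusted p = 0.00427). Both genes had lower means on the high-fat diet at all 6 times, with 18 and 19 of the 23 high-fat mice below the control median.

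The other 9 called large subunit genes follow by role. Rpl26, Rpl11 and Rpl23 can also bind Mdm2 or act on p53 when ribosome assembly fails. They were lower by 5.43%, 4.15% and 3.18% (adjusted p = 0.0125, 0.0372 and 0.0204). Rpl10, which is needed for the subunits to join, was lower by 2.25% (adjusted p = 0.0488). Rpl21 ran from 11.43 to 11.80 (median 11.64) in control and from 11.31 to 11.69 (median 11.55) in high-fat mice, with 21 of the 23 high-fat mice below the control median (5.68% lower, adjusted p = 0.0196). Rpl32 was lower by 8.80%, Rpl22 by 6.93%, Rpl7a by 3.85% and Rpl34 by 2.23% (adjusted p = 0.0304, 0.0434, 0.0256 and 0.0475). Rpl10 and Rpl34 were the least firm of the called genes: leaving out single mice ended the call of Rpl10 for 31 of the 47 mice and that of Rpl34 for 32. Of the 25 large subunit genes not called, Rpl15 was next (−0.035 ± 0.012, adjusted p = 0.0555).

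Fewer small subunit genes were called, 4 of 24, with a median difference of −0.041 over all 24 against −0.046 over the 38 of the large subunit. The difference between the subunits was not tested. Rpsa, also known as the laminin receptor, ran from 11.98 to 12.30 (median 12.13) in control and from 11.88 to 12.18 (median 12.07) in high-fat mice. It was lower by 4.91% (−0.073 ± 0.020, adjusted p = 0.0147), with 18 of 23 high-fat mice below the control median. Rps26, which contacts the mRNA upstream of the codon being read, ran from 11.84 to 12.08 (median 11.97) in control and from 11.75 to 12.02 (median 11.91) in high-fat mice. Its difference was even over the day, from −0.051 at ZT8 to −0.083 at ZT16, with a mean of −0.069 ± 0.020 (adjusted p = 0.0209), and 21 of the 23 high-fat mice lay below the control median. Rps13 was lower by 9.19% (−0.139 ± 0.044, adjusted p = 0.0344) and Rps29, a small zinc-binding protein of the subunit's head, by 3.42% (−0.050 ± 0.015, adjusted p = 0.0241).

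Rps6, the classical substrate of the S6 kinases, did not differ detectably: its median log2 level was 12.84 on both diets, from 12.74 to 12.96 in control and from 12.73 to 12.91 in high-fat mice (−0.0028, adjusted p = 0.931). Of the P-stalk, both acidic proteins were lower. Rplp1 ran from 11.42 to 11.70 (median 11.56) in control and from 11.29 to 11.63 (median 11.49) in high-fat mice, a difference of −0.078 ± 0.019 (adjusted p = 0.00625). Rplp2 ran from 11.32 to 11.69 (median 11.47) and from 11.12 to 11.57 (median 11.35), with −0.116 ± 0.032 (adjusted p = 0.0153). In both genes 17 of the 23 high-fat mice lay below the control median. Rplp0, the scaffold on which they sit and a common reference gene in quantitative PCR, ran from 12.09 to 12.33 (median 12.21) in control and from 12.03 to 12.27 (median 12.19) in high-fat mice and did not pass the test (adjusted p = 0.226).

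Of the paralogs and like-named genes, 2 of the 5 tested were called. Rpl36al, a copy of Rpl36a, was lower by 6.54% (−0.098 ± 0.029, adjusted p = 0.0231), on a probe set of the design shared with other genes. Rps19bp1, which encodes a regulator of the deacetylase SIRT1 and is named for its binding to Rps19, ran from 6.37 to 7.52 (median 6.91) in control and from 6.29 to 7.17 (median 6.66) in high-fat mice, and was lower by 17.5% (−0.28 ± 0.08, adjusted p = 0.0157). The p53 target Rps27l was at −0.08 ± 0.04 (adjusted p = 0.258), Rpl22l1, the paralog of Rpl22, at −0.06 ± 0.04 (adjusted p = 0.324), and Rpl7l1 at −0.14 ± 0.07 (adjusted p = 0.155), none past the threshold. Rpl3l, known from striated muscle fibres, and Rpl39l, known from testis, stayed under the filter on every array: Rpl3l ran from 4.33 to 4.71 in control and from 4.26 to 4.94 in high-fat mice, and Rpl39l from 5.01 to 5.55 and from 5.12 to 5.54.

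With a second normalization of the deposited values by cyclic loess, 10 of 70 members were called on average, all lower, beside 11.3% of all genes called in either direction, and the median difference was −0.029 over the members and −0.0013 over all genes. Without the 7 mice of ZT16 also 10 were called, all lower, beside 5.69% of all genes, with a members' median of −0.042, close to the −0.047 with all mice. Without control ZT20 replicate 2, the library that stood apart in its markers, 21 were called.

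Summarised per mouse, the members' shift was clearest at ZT0. The median over the 70 members of the log2 level relative to each gene's mean over all arrays ran from −0.063 to 0.103 (median 0.028) in control mice and from −0.132 to 0.086 (median −0.012) in high-fat mice. At ZT0 the 4 high-fat mice lay between −0.132 and −0.083 and the 4 control mice between −0.063 and 0.004, without overlap. The groups were also apart at ZT20, by little, with the high-fat mice between −0.042 and 0.024 and the control mice between 0.027 and 0.089, and overlapped at the other 4 times. ZT0 was also the time of the lowest control mean (−0.026 ± 0.028, SD, n = 4) and of the lowest high-fat mean (−0.104 ± 0.020, SD, n = 4). At ZT4 the means were nearly equal, 0.026 ± 0.049 in control and 0.019 ± 0.068 in high-fat mice (SD, n = 4 each).

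**Figure D2:**
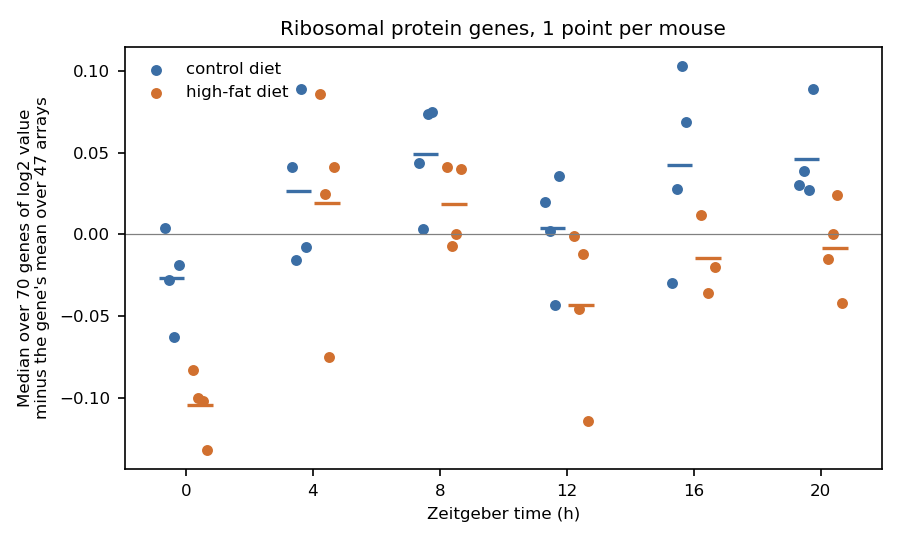
Median over the 70 tested ribosomal protein genes of the log2 level relative to each gene's mean over all arrays, 1 point per mouse, by zeitgeber time in hours and diet, with short bars for the group means. The high-fat mice at ZT0 lie between −0.132 and −0.083, below all 4 control mice of that time, the diets are also apart at ZT20 (−0.042 to 0.024 against 0.027 to 0.089), and they overlap at the other 4 times.

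Time by time, 8 of the 70 members were lower at ZT0 and 0 higher (limma, n = 4 against 4), beside 2.23% of all tested genes called lower and 1.33% called higher there. The median difference of the members at ZT0 was −0.083, beside −0.029 over all tested genes, and 63 of the 70 were below 0. In 17 members every high-fat mouse lay below every control mouse, which held for 6.16% of all tested genes. Rps15, a protein of the small subunit's head, had log2 levels of 11.47, 11.44, 11.36 and 11.40 in the 4 control mice and 11.27, 11.14, 11.17 and 11.14 in the 4 high-fat mice. The groups were fully separate, with a difference of −0.24 ± 0.05 (adjusted p = 0.00487). Rps21 was at 12.09, 12.07, 11.93 and 11.93 in control and 11.85, 11.89, 11.72 and 11.70 in high-fat mice, again without overlap (−0.21 ± 0.05, adjusted p = 0.00802).

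Rpl31, a protein of the tunnel exit, was at 12.52, 12.42, 12.50 and 12.47 in control and 12.34, 12.38, 12.39 and 12.38 in high-fat mice at ZT0 (−0.10 ± 0.03, adjusted p = 0.0236). Its ZT0 groups were apart on this probe set, but its other probe sets gave −0.04 and −0.18 (adjusted p = 0.578 and 0.525). Rplp1 was at 11.60, 11.55, 11.42 and 11.53 in control and 11.37, 11.36, 11.38 and 11.29 in high-fat mice (−0.18, adjusted p = 0.0259). Rps29 was at 12.09, 12.17, 12.06 and 12.07 in control and 11.98, 11.97, 11.96 and 11.93 in high-fat mice (−0.13, adjusted p = 0.0304). Rpl27a (−0.14, adjusted p = 0.0297), Rpl7a (−0.15, adjusted p = 0.0351) and Rpl29 (−0.16, adjusted p = 0.0375) made up the rest, and in each of them all high-fat mice lay below all control mice. The count at ZT0 rested on few mice: it was 4 without control replicate 1, 3 without control replicate 2, 5 without control replicate 4, 4 without high-fat replicate 1 or 2, and 2 without high-fat replicate 4.

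At ZT16, where 7.13% of all tested genes were called lower and 6.13% higher, 4 of the 70 members were lower and 0 higher (n = 4 against 3), so the members' share of 5.71% was near the background. Their median difference was −0.060, beside −0.020 over all tested genes. Rpl36al was at 10.94, 11.09, 11.15 and 11.12 in control and 10.83, 10.82 and 10.80 in high-fat mice (−0.26 ± 0.08, adjusted p = 0.0186). Rps29 was at 12.06, 12.16, 12.12 and 12.20 in control and 12.04, 12.01 and 11.94 in high-fat mice (−0.14 ± 0.04, adjusted p = 0.0151). In both genes the groups did not overlap. Rpl41 (−0.21 ± 0.06, adjusted p = 0.0202) and Rpl37a (−0.15, adjusted p = 0.0438) were the others. Rps16 was at 0.07 ± 0.03 (adjusted p = 0.150), and it was called higher after cyclic loess or with array weights. Rpl41 was at 11.69 in the lowest control mouse and in the highest high-fat mouse. The count at ZT16 was 8 without control replicate 1, 1 without control replicate 3, 0 without control replicate 4, 2 without high-fat replicate 1 or 2, and 0 without high-fat replicate 3.

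At ZT8 Rpl34 alone was called lower and 0 members higher, beside 1.02% and 0.760% of all tested genes. Its levels were 12.21, 12.16, 12.17 and 12.19 in control and 12.12, 12.08, 12.04 and 12.09 in high-fat mice (−0.10 ± 0.03, adjusted p = 0.0400), and the call was lost without any 1 of the 4 control mice or of high-fat replicates 2, 3 and 4. No member passed at ZT4, ZT12 or ZT20, where 0.107%, 0.390% and 0.517% of all tested genes were called lower and 0.205%, 0.468% and 0.302% higher (limma). At an unadjusted p under 0.05 there were 1, 11 and 8 members at these times (1.43%, 15.7% and 11.4%), all lower. Of all tested genes 12.3%, 14.4% and 13.6% were at such a p in either direction. Counted in either direction, the members' shares were thus below or near the background. The share of all genes that were lower at such a p was not counted, so the members' lower direction has no matching background here. The smallest p was at Rpl10 for ZT4 (−0.06, adjusted p = 0.382), Rplp2 for ZT12 (−0.23, adjusted p = 0.138) and Rpl3 for ZT20 (−0.10, adjusted p = 0.105). The members' median differences were −0.00054 at ZT4, −0.035 at ZT8, −0.046 at ZT12 and −0.047 at ZT20, with 35, 51, 57 and 63 of the 70 below 0. At ZT4 the members thus divided evenly in sign. Members in which every high-fat mouse lay below every control mouse numbered 0 at ZT4 (2.28% of all tested genes), 7 at ZT8 (5.87%), 6 at ZT12 (3.28%), 11 at ZT16 (15.8%) and 10 at ZT20 (4.04%).

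**Figure D3:**
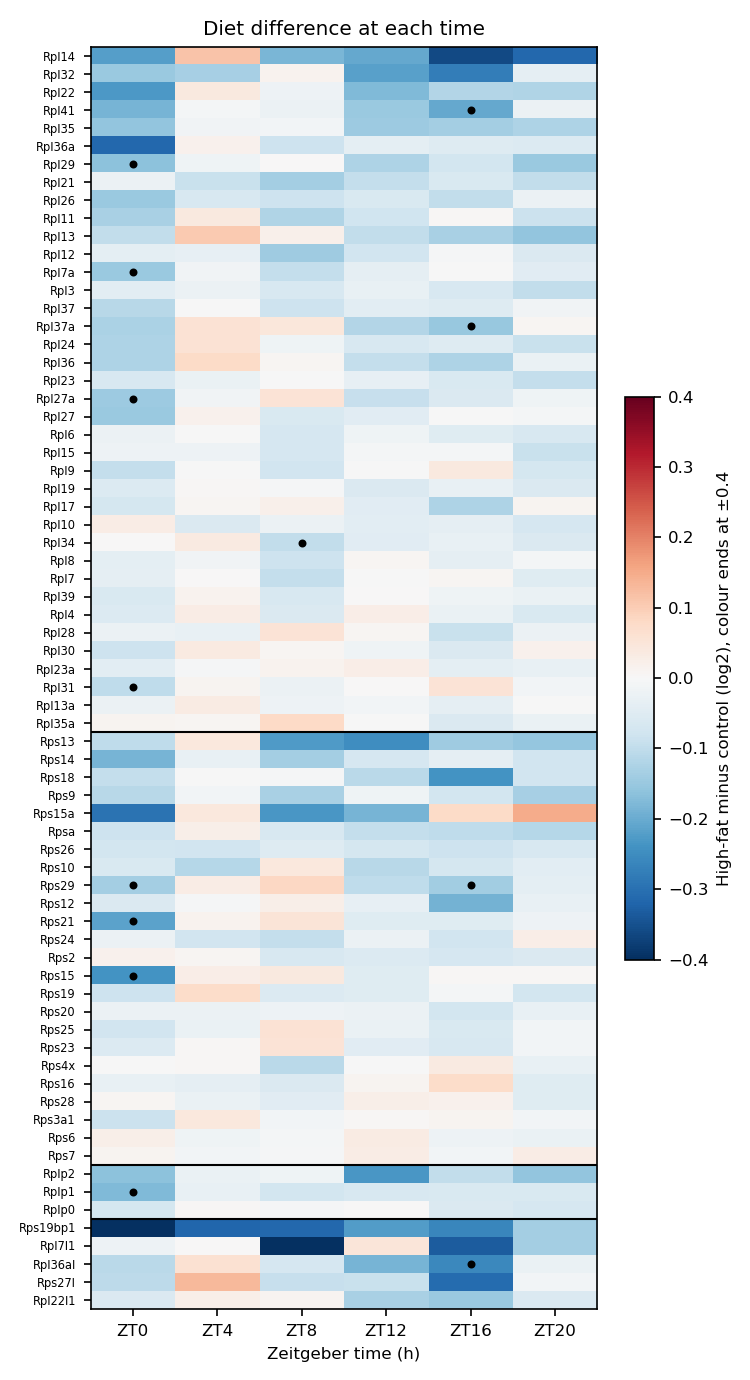
High-fat minus control difference on the log2 scale for the 70 tested members (rows, divided by lines into large subunit, small subunit, P-stalk, and paralogs or like-named genes) at the 6 times (columns, zeitgeber time), with dots at the 13 differences with an adjusted p under 0.05. The dots lie at ZT0 (8), ZT8 (1) and ZT16 (4), all lower on the high-fat diet, and the ZT4 column shows as many genes above as below 0.

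Whether the diet difference itself varied over the day was tested with the interaction of diet and time. It was called for 3 of the 70 members, below the background of 12.4% of all tested genes. In Rps29 (adjusted p = 0.00917) the difference was −0.135 at ZT0, 0.031 at ZT4, 0.082 at ZT8, −0.101 at ZT12, −0.139 at ZT16 and −0.039 at ZT20. At ZT8 the 4 high-fat mice had a mean of 12.11 ± 0.02 and the 4 control mice 12.02 ± 0.05 (SD). The order of the means was thus turned relative to ZT0, but the ZT8 difference itself was not called (limma, adjusted p = 0.228). In Rps15 (adjusted p = 0.0250) the control means stayed between 11.35 and 11.42 over the day, and the high-fat means between 11.30 and 11.43 except for 11.18 at ZT0. Rps21 (adjusted p = 0.0488) showed the same form, with control means from 11.98 to 12.08 and high-fat means from 11.96 to 12.03 except for 11.79 at ZT0. The count was 5 without control ZT16 replicate 1 and 1 without high-fat ZT0 replicate 4, and the call of Rps21 was lost for 33 of the 47 mice left out.

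Daily rhythms, fitted as a 24 h cosine within each diet, were few and small among the members. On the control diet 0 of 70 were called, beside 10.5% of all tested genes (limma; 8, or 11.4%, at a raw p under 0.05, beside 26.7%), and the median amplitude (from the fitted mean to the peak) was 0.031, against 0.105 over all tested genes. The smallest p was that of Rpl34, with an amplitude of 0.043 ± 0.013 (SE) and a peak at 12.6 h (adjusted p = 0.0566). On the high-fat diet 2 of 70 were called, beside 16.9% of all tested genes, and the median amplitude was 0.034, against 0.118.

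Rps27l, the p53-responsive paralog of Rps27, was the more rhythmic of these 2. Its means (log2 ± SD) on the high-fat diet were 9.38 ± 0.20 at ZT0, 9.58 ± 0.10 at ZT4, 9.55 ± 0.13 at ZT8, 9.18 ± 0.10 at ZT12, 9.03 ± 0.08 at ZT16 and 9.29 ± 0.07 at ZT20 (n = 4 each, 3 at ZT16). The fitted amplitude was 0.26 ± 0.05 with a peak at 4.29 h (adjusted p = 0.00089). On the control diet its means ran from 9.27 ± 0.18 at ZT12 to 9.65 ± 0.12 at ZT8 and the amplitude was 0.14 ± 0.05 with a peak at 5.08 h (adjusted p = 0.111). The second was Rps16, which rose on the high-fat diet from 11.93 ± 0.04 at ZT0 to 12.10 ± 0.05 at ZT16, with a fitted amplitude of 0.059 ± 0.014 and its peak at 13.4 h (adjusted p = 0.0106). Its control means lay between 11.97 and 12.06. The probe set of Rps27l is of the design open to cross-hybridisation, and that of Rps16 of the design shared with other genes. Rps27l has 3 probe sets, and rhythms were not fitted for each of them.

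The difference in rhythm between the diets was called for 0 of the 70 members (limma), beside 2.11% of all tested genes (2, or 2.86%, at a raw p under 0.05, beside 18.9%), so Rps27l and Rps16 were not shown to cycle differently on the 2 diets. Within each diet these rhythms cannot be told apart from differences between collection days. With the day as a random block 1 of the 70 members was called on the high-fat diet, beside 5.65% of all tested genes.

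**Figure D4:**
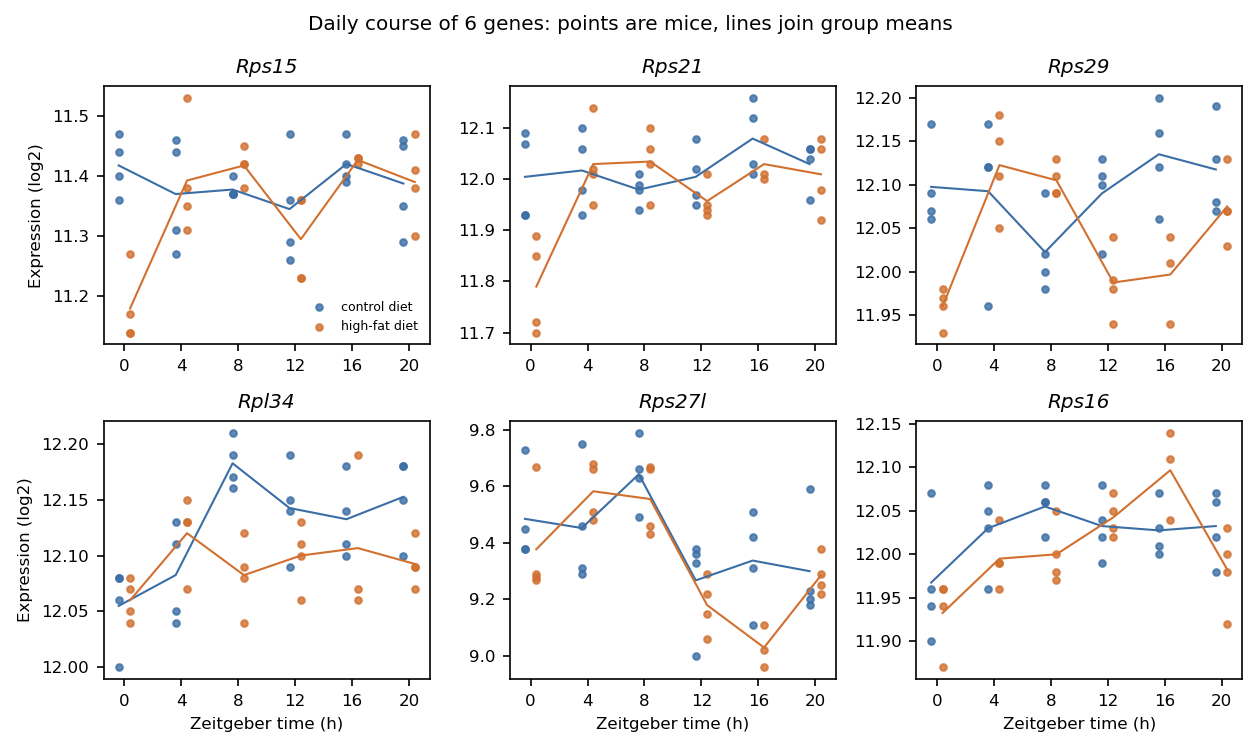
Log2 level of Rps15, Rps21, Rps29, Rpl34, Rps27l and Rps16 by zeitgeber time in hours, with 1 point per mouse and lines through the group means of the 2 diets. Rps15 and Rps21 on the high-fat diet drop at ZT0 to means of 11.18 and 11.79, and Rps27l falls on the high-fat diet to 9.03 at ZT16.

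Ribosomal protein genes have many processed pseudogenes and near copies, and the probes of 1 gene can bind the RNA of another, so the agreement of probe sets was checked. For 34 members more than 1 probe set lay above a filter at the 40th percentile over probe sets, and in 26 of them every probe set was lower on the high-fat diet on average. Over all 129 such probe sets of members, 118 were below 0, 34 were called lower and 0 higher, beside 6.30% and 4.54% of all 17339 probe sets above the filter. By design class, 6 of 32 probe sets made to match 1 transcript were called lower (median −0.073), 11 of 45 that match transcripts of 1 gene (median −0.035), 1 of 8 shared with other genes (median −0.029) and 16 of 44 open to cross-hybridisation (median −0.050). The 4 probe sets of Rpl35 gave −0.09 to −0.10. Those of Rpl41 gave −0.10, −0.09, −0.19 and −0.24 on average, but at ZT16 they disagreed in sign, with −0.21, −0.36, 0.31 and 0.47. Those of Rpl21 gave −0.08, −0.06 and 0.08.

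With p adjusted over those 17339 probe sets, at ZT0 the second probe set of Rps15 gave −0.14 (adjusted p = 0.181), and the other 3 of Rps21 gave −0.14, −0.07 and −0.12 (adjusted p = 0.0762, 0.419 and 0.285). The second probe set of Rps29 gave −0.09 at ZT0 (adjusted p = 0.166) and −0.03 at ZT16 (adjusted p = 0.713). At ZT16 the other probe sets of Rpl37a gave −0.10 and 0.19 (adjusted p = 0.333 and 0.419). At these times none of Rps15, Rps21, Rps29, Rpl31 and Rpl37a was called on a further probe set. With only the first class, the probe sets made to match 1 transcript, 28 members remained and 6 of them were called lower on average, with a median of −0.074.

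The start site features were counted separately for the called members. Of the 15 members called lower on average that had a listed start, 4 (26.7%) held a run of at least 8 pyrimidines, as did 14 of the 41 tested members that were not called (34.1%). The listed first base was C in 2 of the 15 (13.3%) and in 16 of the 41 (39.0%), and C or T in 33.3% and 53.7%. GGAAGT was found in 11 of the 15 (73.3%) and in 18 of the 41 (43.9%). Among the windows shown, Rpl35 and Rpl7a with runs of 18 and 17 were both called, but so was Rpl41 with a run of 3, and Rps6 with a run of 10 was not. No test was made of these shares.

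Genes that work with the ribosomal proteins were read from lists of the pathway. The 20 other TOP mRNAs had a median of −0.046 on average, close to that of the members. Beside a background of 6.80% of all tested genes lower and 4.70% higher, 6 of them (30%) were lower and 0 higher. They include the elongation factors Eef1b2 (−0.06, adjusted p = 0.00974) and Eef2 (−0.04, adjusted p = 0.0180), the nucleolar chaperone Npm1 (−0.07, adjusted p = 0.00204) and the poly(A)-binding protein Pabpc1 (−0.06, adjusted p = 0.0361). Fau, whose protein carries the ribosomal protein eS30 and whose symbol falls outside the rule, was at −0.06 ± 0.03 (adjusted p = 0.166).

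Nucleolar factors, which make rRNA and assemble the subunits, differed by more on the log2 scale. On average 25% of those tested were called lower, beside 6.80% of all tested genes. Of 36, 9 were lower and 0 higher on average, with a median of −0.122, among them the rRNA modification factor Nop56 (−0.28, adjusted p = 0.00017), nucleolin, Ncl (−0.25, adjusted p = 0.000929), Wdr74 (−0.34, adjusted p = 0.00752) and the helicase Ddx21 (−0.21, adjusted p = 0.0100). Their difference was largest in size at ZT16, with 15 of 36 lower (41.7%, beside 7.13% of all tested genes). The median was −0.297 there, against −0.203 at ZT0 and 0.185 at ZT4. The rhythms of these nucleolar genes were also wider, with a median amplitude of 0.151 in control and 0.243 in high-fat mice. In control mice 6 of 36 (16.7%) were called, beside 10.5% of all tested genes. In high-fat mice 21 of 36 (58.3%) were called, beside 16.9%. Bop1, which acts in maturation of the large subunit's rRNA, had an amplitude of 0.28 ± 0.06 in control mice, peaking at 5.59 h (adjusted p = 0.00178), and of 0.32 ± 0.06 in high-fat mice, peaking at 4.99 h (adjusted p = 0.000475).

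Regulators upstream of the ribosomal proteins moved in both directions. Of 20 genes of mTORC1, MYC and the S6 kinases, 5 were lower and 3 higher on average (median −0.058). These made up 40% of those tested, beside 11.5% of all tested genes in either direction. Deptor, an inhibitor of mTOR, was higher (0.16, adjusted p = 0.000399), and Sesn2, an inhibitor of mTORC1 induced by stress, was lower (−0.26, adjusted p = 0.00155), as was Eif4ebp2, a repressor of cap-dependent translation that mTORC1 inactivates (−0.16, adjusted p = 0.00230). Of 9 tested genes of the p53 response to ribosomal stress, 2 were lower, the cell cycle inhibitor Cdkn1a (−0.19, adjusted p = 0.00121) and the death gene Bbc3 (−0.18, adjusted p = 0.00695), and 2 higher, Trp53inp1 (0.22, adjusted p = 0.00853) and Sesn1 (0.20, adjusted p = 0.0331). The p53 list thus had 44.4% of its tested genes called, beside the same 11.5%. The mitochondrial ribosomal proteins, which form a separate ribosome, had 3 lower and 2 higher of 71 tested (median −0.037). Their share called, 7.04%, was below the 11.5% of all tested genes. Mrpl23 was at −0.21 (adjusted p = 0.000606) and Mrps6 at 0.18 (adjusted p = 0.0223).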

How the data were processed

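RNA of 47 mice was measured on Affymetrix arrays. The authors deposited 1 log2 value for every probe set and array. The submitters' processing notes list RMA (background correction, quantile normalization, probe summary), whose version is not given in the sources used here. Quantile scaling makes every difference relative to the bulk of genes. Gene symbols came from the platform annotation, updated through gene identifiers for 28689 probe sets, and 551 probe sets with several symbols, 15 of which name a member, were not used. For each gene the probe set with the highest mean was kept, and genes under the 40th percentile of the mean (5.80) were left out, leaving 10258. No array column of the table was left unmapped.

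Tests used limma 3.58.1 in R 4.3.3 (12 group means or a 24 h cosine per diet, all mice, eBayes with an intensity trend), with two-sided p adjusted by Benjamini-Hochberg across the 10258 genes and called under 0.05. Values after ± are standard errors unless SD is named. The same code was tested on simulated data. The members and the gene lists were chosen with earlier results of these data known. Named genes are the members called in a comparison, those with the smallest p where few or none were, the paralogs, the P-stalk, members chosen for a known role, and up to 4 genes per list by p. Probe set choice, filter, cyclic loess, array weights, blocks and left-out mice were tried as alternatives. Precision is limited by the number of arrays. The labels call the samples biological replicates, 1 mouse each.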

Additional observations from a re-analysis of the deposited data

Results flagged for a closer look

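In the 4 high-fat mice at ZT0, the lowest value of Rpl31, 12.34, stood apart from the other 3, which lay at 12.38 to 12.39; its gap exceeded Dixon's 95% critical value for 4 samples. This was 1 of 33 checks on groups of 4 mice, made on members called at a time and on the per-mouse median of the members. The same mice enter several checks, and chance marks about 1 in 20 such checks.

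The diet difference varied between times by the interaction test (limma) in Rps29 (adjusted p = 0.00917), Rps15 (adjusted p = 0.0250) and Rps21 (adjusted p = 0.0488). In Rps15 and Rps21 the high-fat mice were lower at ZT0, and in Rps29 at ZT0 and ZT16.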

How the results depend on the processing

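Under each alternative probe set choice, filter, scaling, weight, block and set of times, 0 members were called higher on average and the members' median difference lay between −0.029 and −0.074. Instead of 21, the number of members called on average was 6 (of 28 tested) with only plain probe sets, 10 after cyclic loess, 10 without ZT16 and 12 with the replicate block. Of all genes, 10.1%, 11.3%, 5.69% and 9% were called under these settings, in either direction. At ZT0, instead of 8, the number of members was 2, 3 and 2 with plain probe sets, cyclic loess and the replicate block, and 1 with only the mice of that time. Of all genes, 3.34%, 3.56%, 2.18% and 0.838% were called there, in either direction. At ZT8, instead of 1, the number of members was 0 with those 4 settings and 3 with array weights, the latter beside 7.56% of all genes. At ZT16, instead of 4, it was 2 with plain probe sets, 0 with the replicate block and 12 with array weights. Of the 12, 11 were lower and 1 higher. Of all genes, 12.3%, 7.66% and 26.1% were called under these 3 settings, in either direction. The higher gene was Rps16 (0.083, adjusted p = 0.0248, limma), which was also called higher there after cyclic loess (0.089, adjusted p = 0.0476). For the interaction, instead of 3, the number of members was 1 with plain probe sets, 5 with array weights and 1 without ZT16. Of all genes, 11.8%, 21.4% and 2.64% were called. For control rhythms, instead of 0, the number was 4 with the mean of all probe sets, beside 12.2% of all genes. It was 1 with plain probe sets (9.68% of all genes) and 2 after cyclic loess (10.6%). With array weights it was 4 (15.3%), and without ZT16 it was 1 (11.8%). For high-fat rhythms, instead of 2, it was 5 with the mean of probe sets, beside 18.3% of all genes. It was 1 without ZT16 (10.4% of all genes) and 1 with a random block for the day (5.65%). The causes were not tested. Leaving out 1 mouse at a time gave 15 to 24 members on average, 2 to 9 at ZT0, 0 to 1 at ZT8, 0 to 8 at ZT16, 1 to 5 for the interaction, 0 to 2 for control and 2 to 3 for high-fat rhythms, and 0 throughout at ZT4, ZT12 and ZT20 and for the rhythm difference. Control rhythms reached 1 or 2 members without each of 9 mice. Rpl41 at ZT16 turned to 0.054 (adjusted p = 0.723) with the mean of its probe sets and to 0.47 (adjusted p = 0.0896) with plain probe sets, and the average of Rpl21 to 0.084 (adjusted p = 0.513) with plain probe sets. Same-numbered mice of the 2 diets share a number rather than an origin: their deviations correlated at −0.193 to 0.114, above 0.1 in 1 of 23 pairs. Small differences of bright genes are limited by the number of arrays.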
